A study of Homo sapiens with 6 samples.

Results

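Metalloproteases are zinc-dependent enzymes that cut proteins of the extracellular matrix and of the cell surface, and the tissue inhibitors of metalloproteases (TIMPs) bind and block them. The matrix metalloproteases (MMPs) are secreted or held in the plasma membrane and digest collagens, laminins and junction proteins, while the membrane-bound ADAM proteases release the outer parts of growth factors, cytokines, cadherins and Notch receptors. In the brain microvasculature these enzymes are known for remodelling the basement membrane and for opening the blood-brain barrier after ischaemia. The 9 genes described here are the MMP genes MMP9, MMP14 and MMP15, the inhibitor genes TIMP1, TIMP2 and TIMP3, and the sheddase genes ADAM9, ADAM10 and ADAM17. They were chosen by symbol, matched to the Ensembl gene IDs of a table of 17104 genes. Of the 9 genes, 8 had a row. TIMP3 had no row, so its transcript was not analysed, and TIMP3 enters only the promoter search.

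Transcripts were measured by RNA-seq in 3 libraries of HBMEC, a line labelled as brain microvascular endothelium, that had gone through OGD/R (deprivation of oxygen and glucose, then reperfusion), a culture model of ischaemia in which oxygen and glucose are withdrawn and then given back, and in 3 libraries of the same line under normal culture (control). All 6 libraries carry the labels HBMEC, endothelial cell and brain, with no genotype or other agent, and how long deprivation and reperfusion lasted is not stated in the labels. Separate cultures are not recorded for the libraries within a group, so p-values measure the spread between these libraries, which may be technical. The comparison asks which transcripts differ after OGD/R.

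Total counts were 31048662 to 34484647 in the OGD/R libraries and 32107917 to 33607821 in the control libraries. Of 15 endothelial marker genes, 5 had a row (CDH5, ESAM, EGFL7, ROBO4 and MMRN2), with a summed level of 203 to 210.5 CPM (counts scaled to a common library size, TMM-corrected) after OGD/R and 199 to 216 CPM in control. Behind this sum the markers moved apart. CDH5 rose (described with the substrates), ROBO4 fell, at 3.79 ± 0.83 CPM after OGD/R and 6.36 ± 0.35 CPM in control (SD, n = 3 each, log2 fold change −0.75, adjusted p = 0.00107), and ESAM (−0.06, adjusted p = 0.418) and EGFL7 (0.01, adjusted p = 0.952) did not pass. MMRN2 fell at under 1 CPM (−1.75, adjusted p = 0.0238). That call ended without OGD/R replicate 2 (−1.35), OGD/R replicate 3 (−1.46) or control replicate 3 (−1.50). The MMRN2 adjusted p ran from 0.00226 to 0.139 over the 14 alternatives that gave a value. DESeq2 and the filter at 1 CPM gave none. The defining endothelial genes PECAM1, VWF, KDR, TEK and TIE1 had no row. Of 14 epithelial markers, 8 had a row, with a summed level of 3048 to 3104 CPM after OGD/R and 2485 to 2711 CPM in control. KRT19, CLDN3, CLDN7, GRHL2, ST14 and RAB25 had no row, and CDH1 averaged 0.98 CPM after OGD/R and 1.19 CPM in control. The labelled cell type was not borne out by its markers, and the epithelial list was incomplete as well. By log2 fold change KRT8 (0.33), KRT18 (0.18), KRT7 (0.17) and ELF3 (0.19) rose, with adjusted p of 1.28e-08 to 0.0272. EPCAM (0.14), CLDN4 (−0.25), ESRP1 (−0.18) and CDH1 (−0.28) did not pass, with adjusted p of 0.0658 to 0.646. The epithelial sum, mostly keratin genes, moved with the groups, and its part in the results below was not tested. Of 12 leukocyte markers, 3 had a row, summing to 7.84 to 10.4 CPM after OGD/R and 8.13 to 10.2 CPM in control. Of 11 mesenchymal and pericyte markers 5 had a row, at 31.6 to 36.8 CPM after OGD/R and 37.0 to 37.9 CPM in control, and of 10 astrocyte and neuron markers 4 had a row, at 14.9 to 16.7 CPM after OGD/R and 16.8 to 19.5 CPM in control. The last 2 sums were lower after OGD/R without overlap, and their part was not tested either.

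After OGD/R the transcripts of the 3 matrix metalloproteases MMP9, MMP14 and MMP15 fell, that of the inhibitor TIMP1 rose, and those of TIMP2 and of the 3 sheddases did not pass the test. The changes were small, at most 0.46 on the log2 scale. Of the 8 measured genes 1 rose and 3 fell (edgeR, quasi-likelihood, with adjusted p below 0.05), against 10.2% of all 17104 genes that rose and 9.48% that fell, or 19.7% in either direction. All 17104 genes split into 1749 higher and 1621 lower, and into 1383 higher and 2098 lower when the libraries were scaled by total counts alone. Both scalings called the same number of these 8 genes in each direction. Since the genes were picked with results of these data known, their share of calls describes them and does not test them. In cultured cells measured in bulk, fewer cells that carry a transcript and less transcript per cell cannot be told apart.

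**Figure D1:**
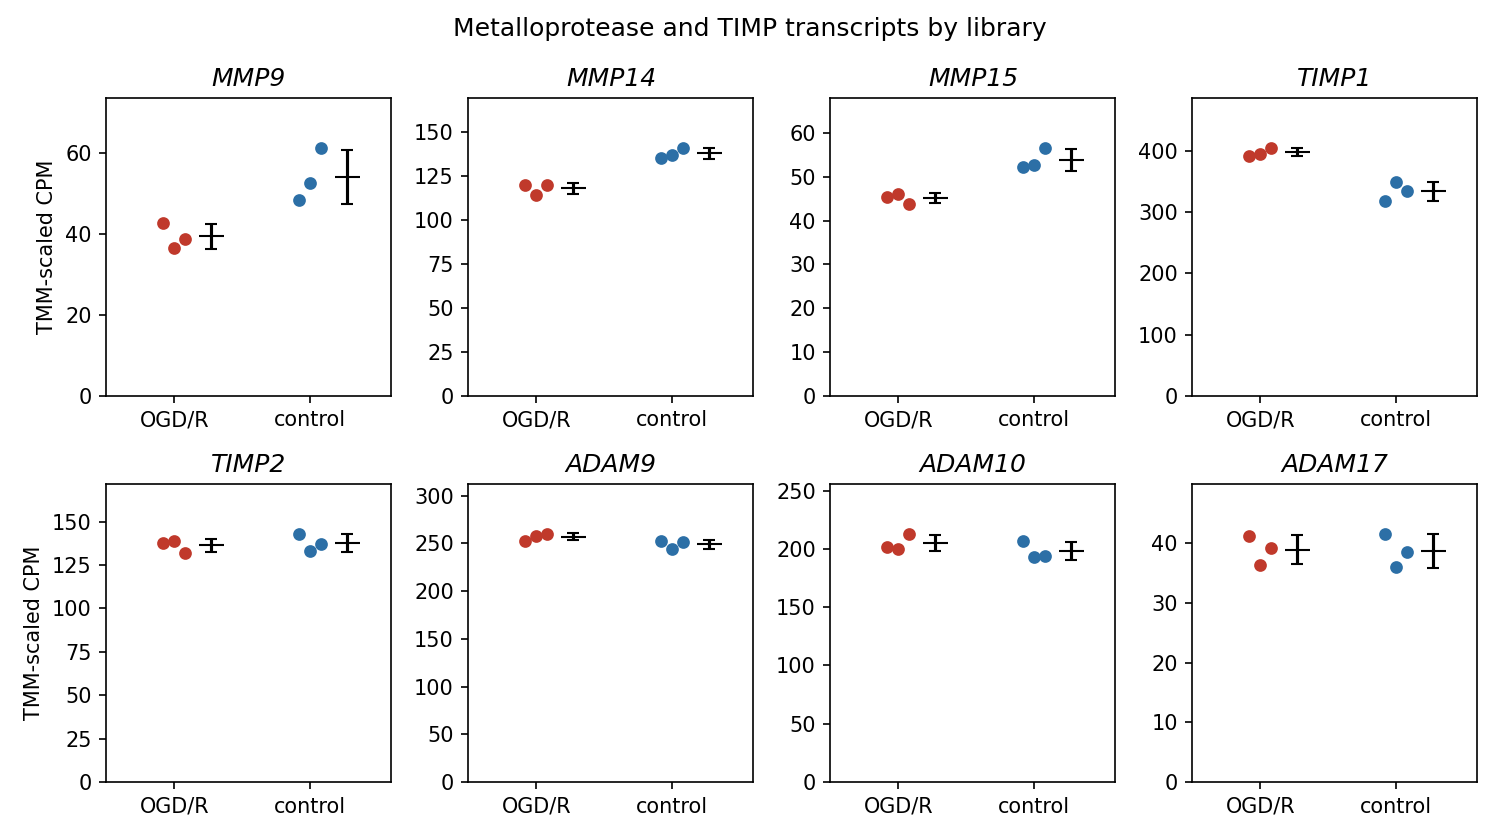
Level of each measured gene in TMM-scaled CPM (vertical axes from 0), for 3 OGD/R libraries (red, left) and 3 control libraries (blue, right), with the mean ± SD beside the points. MMP9, MMP14 and MMP15 lay lower in every OGD/R library than in every control library, and TIMP1 lay higher. ADAM9 lay slightly higher in every OGD/R library too, but did not pass the test. The groups of TIMP2, ADAM10 and ADAM17 overlapped. Of all genes, 33% did not overlap between the groups.

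MMP9 (ENSG00000100985) encodes a secreted gelatinase that cuts denatured collagen and the type IV collagen of basement membranes. It had 42.8, 36.5 and 38.9 CPM in OGD/R replicates 1, 2 and 3, against 48.4, 52.6 and 61.4 CPM in control replicates 1, 2 and 3. These values rest on 1468, 1119 and 1303 reads in the OGD/R libraries and on 1582, 1767 and 2019 reads in the control libraries. All OGD/R libraries were below all control libraries, and control replicate 3 was the highest. MMP9 averaged 39.4 ± 3.17 CPM after OGD/R and 54.1 ± 6.60 CPM in control (SD, n = 3 each), a log2 fold change of −0.46 ± 0.07 (SE), with a 95% interval of −0.60 to −0.31 and an adjusted p of 5.29e-06. The antisense gene SLC12A5-AS1 shares 18.4% of the exon bases of MMP9. It had 0.758, 0.817 and 1.76 CPM after OGD/R and 0.949, 0.804 and 1.03 CPM in control, and its own level was far below that of MMP9 in every library. How reads in the shared bases were counted is not known, so part of the MMP9 count is uncertain.

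MMP14 (ENSG00000157227) encodes a membrane-type protease that digests collagen at the cell surface and activates the proform of MMP2. Its level was 120.0, 114 and 119.5 CPM in OGD/R replicates 1, 2 and 3, against 135, 137 and 141 CPM in control replicates 1, 2 and 3. The groups stood apart and each was narrow. MMP14 averaged 118 ± 3.55 CPM after OGD/R and 138 ± 2.76 CPM in control (SD, n = 3 each), a log2 fold change of −0.22 ± 0.05 (SE) with an adjusted p of 0.000206.

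MMP15 (ENSG00000102996) encodes another membrane-type protease. It had 45.5, 46.0 and 43.9 CPM in OGD/R replicates 1, 2 and 3, against 52.2, 52.8 and 56.7 CPM in control replicates 1, 2 and 3. Again no OGD/R library reached a control library. Its log2 fold change was −0.26 ± 0.06 (SE, n = 3 each) with an adjusted p of 0.00167. The MMP15 call ended when each library's trend with transcript length and GC content was removed (−0.15, adjusted p = 0.0596, with adjusted p from 0.000435 to 0.0596 over all alternatives).

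TIMP1 (ENSG00000102265) encodes a secreted inhibitor that binds most MMPs and the proform of MMP9 but inhibits membrane-type MMPs poorly. It had 393, 396 and 406 CPM in OGD/R replicates 1, 2 and 3, against 318, 349.7 and 335 CPM in control replicates 1, 2 and 3. Every OGD/R library was above every control library. TIMP1 averaged 398 ± 6.65 CPM after OGD/R and 334 ± 15.6 CPM in control (SD, n = 3 each), a log2 fold change of 0.25 ± 0.04 (SE) and an adjusted p of 6e-06. The longest annotated TIMP1 transcript, at 1095 nucleotides, was the shortest among the 8 genes, the others reaching 2336 to 11431 nucleotides. With the length and GC trend removed, the TIMP1 change was 0.12 ± 0.03 (SE), with an adjusted p of 0.00655. TIMP1 lies inside SYN1 on the opposite strand, and no exon bases are shared.

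TIMP2 (ENSG00000035862) encodes the inhibitor that binds MMP14 and with it forms the complex that activates pro-MMP2. Its level was 138, 139 and 132 CPM in OGD/R replicates 1, 2 and 3, against 143, 133 and 137 CPM in control replicates 1, 2 and 3. The groups overlapped, and the log2 fold change was −0.01 ± 0.05 (SE, n = 3 each), with a 95% interval of −0.10 to 0.08 and an adjusted p of 0.904. A change of that gene below −0.10 or above 0.08 was thus outside the interval, while one within it could not be told from no change.

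Among the sheddases, ADAM9 (ENSG00000168615), which sheds growth factor precursors such as HB-EGF, had 253, 258 and 260.0 CPM in OGD/R replicates 1, 2 and 3, against 252, 244 and 251 CPM in control replicates 1, 2 and 3. The groups did not overlap, as in 33% of all genes, yet they nearly touched, and the log2 fold change of 0.05 ± 0.04 (SE, n = 3 each, 95% interval −0.04 to 0.13) did not pass (adjusted p = 0.496). ADAM10 (ENSG00000137845), the main sheddase of Notch receptors and classical cadherins, averaged 205 ± 6.83 CPM after OGD/R, with replicate 3 highest at 213 CPM, and 198 ± 8.07 CPM in control, with replicates 1, 2 and 3 at 207, 193 and 194 CPM (SD, n = 3 each). The ADAM10 groups overlapped through control replicate 1, and the log2 fold change was 0.05 ± 0.04 (SE, adjusted p = 0.508). With the length and GC trend removed ADAM10 passed, at 0.13 ± 0.04 (SE, adjusted p = 0.00367, with adjusted p from 0.00267 to 0.860 over all alternatives). This correction used its longest annotated transcript of 11431 nucleotides, and a shorter one in these cells would change it. ADAM17 (ENSG00000151694), the enzyme that releases tumour necrosis factor and ligands of the epidermal growth factor receptor, had 41.3, 36.4 and 39.2 CPM in the OGD/R libraries, against 41.6, 36.0 and 38.5 CPM in the control libraries. The ADAM17 values of the groups interleaved, with a log2 fold change of 0.01 ± 0.07 (SE, 95% interval −0.13 to 0.15, adjusted p = 0.952). Other genes share 13.6% of the ADAM17 exon bases (IAH1 and AC073195.1) and 10% of those of TIMP2 (CEP295NL and AC022966.1), so part of these counts is uncertain.

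The upstream sequences of the changed genes are shown because MMP14 and MMP15 fell while TIMP1 rose. Each is the stretch of 250 bases before the RefSeq gene start, 5′ to 3′ on the + strand of build GRCh38.p14. Of the 9 genes, 6 had an entry in the RefSeq promoter table. MMP9, TIMP2 and ADAM9 are named only. Capitals mark letters of a searched motif. Each motif was searched on both strands. TGANTCA is the site of AP-1, the FOS and JUN factor that is a known regulator of MMP and TIMP genes. A variant of it known from the TIMP1 promoter, TGAGTAA, was chosen for that gene. The GC box was searched as GGGCGG, which reads CCGCCC on the other strand. The TATA box was searched as TATAAA. No letters of these motifs overlapped.
MMP14 (chr14:22836335-22836584): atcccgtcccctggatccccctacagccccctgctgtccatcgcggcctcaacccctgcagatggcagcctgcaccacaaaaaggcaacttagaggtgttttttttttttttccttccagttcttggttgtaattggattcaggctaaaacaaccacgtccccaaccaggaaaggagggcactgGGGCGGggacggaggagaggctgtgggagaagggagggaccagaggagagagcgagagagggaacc
MMP15 (chr16:58025504-58025753): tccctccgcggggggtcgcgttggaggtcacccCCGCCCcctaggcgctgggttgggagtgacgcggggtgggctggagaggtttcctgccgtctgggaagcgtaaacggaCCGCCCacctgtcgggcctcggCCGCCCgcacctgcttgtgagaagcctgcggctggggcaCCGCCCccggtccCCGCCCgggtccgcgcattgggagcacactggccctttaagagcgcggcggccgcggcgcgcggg
TIMP1 (chrX:47582186-47582435): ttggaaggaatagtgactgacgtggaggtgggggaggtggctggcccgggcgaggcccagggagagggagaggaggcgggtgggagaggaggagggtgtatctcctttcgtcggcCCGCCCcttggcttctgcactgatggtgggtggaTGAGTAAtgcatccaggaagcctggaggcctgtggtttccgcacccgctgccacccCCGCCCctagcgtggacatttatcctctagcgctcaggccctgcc
TGAGTAA stood once in the TIMP1 window, from base −101 to −95 relative to the start, and in no other window of the 6. Of all 35116 promoters in the table, 2.21% held it. TGANTCA, present in 6.57% of all promoters, and TATAAA, present in 10.7%, were in none of the 6 windows. GGGCGG, present in 42.6% of all promoters, was in all 6 windows, with 1 match in MMP14, 5 in MMP15, 2 in TIMP1, 5 in TIMP3, 1 in ADAM10 and 3 in ADAM17. The GC box was thus in the windows of MMP14 and MMP15, which fell, of TIMP1, which rose, and of ADAM10 and ADAM17, which did not pass the test. A match of letters describes the window and is not a measured binding site.

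Levels of different genes were set beside each other as CPM per kilobase of the longest annotated transcript. TIMP1 was the most abundant, at 359, 361 and 370.4 CPM per kilobase in OGD/R replicates 1, 2 and 3 and 291, 319 and 306 in control replicates 1, 2 and 3. ADAM9 came next, at 65.8 to 67.7 CPM per kilobase after OGD/R and 63.5 to 65.6 in control. Below it TIMP2 was at 36.2 to 38.1 CPM per kilobase after OGD/R and 36.3 to 39.2 in control, and MMP14 at 30.4 to 32.2 after OGD/R and 36.3 to 37.7 in control. TIMP2 and MMP14 levels thus overlapped in control and lay apart after OGD/R, with MMP14 the lower.

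MMP9 was at 15.6 to 18.3 CPM per kilobase after OGD/R and 20.7 to 26.3 in control, and ADAM10 at 17.5 to 18.6 after OGD/R and 16.9 to 18.1 in control. The MMP9 level exceeded that of ADAM10 in all 3 control libraries, whereas after OGD/R the levels overlapped and MMP9 was the lower in replicates 2 and 3. MMP15, at 10.3 to 10.8 CPM per kilobase after OGD/R and 12.3 to 13.3 in control, and ADAM17, at 5.54 to 6.29 after OGD/R and 5.48 to 6.33 in control, closed the order in every library. These orders depend on the annotated lengths.

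**Figure D2:**
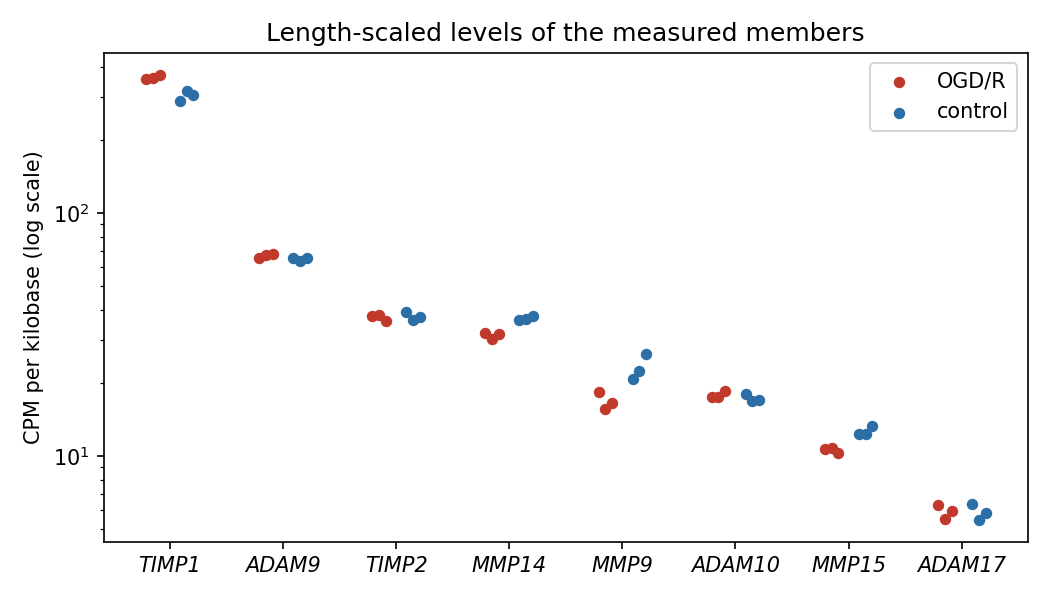
Length-scaled level of the 8 measured genes, in CPM per kilobase of the longest annotated transcript on a log axis. Each point is a library, with OGD/R in red on the left and control in blue on the right of each gene. TIMP1 lay above all others in every library, and ADAM17 lay lowest.

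The balance of protease and inhibitor transcripts was compared within each library, where the scaling between libraries cancels. The log2 ratio of MMP9 to TIMP1 CPM was −3.20, −3.44 and −3.38 in OGD/R replicates 1, 2 and 3, against −2.72, −2.73 and −2.45 in control replicates 1, 2 and 3. All OGD/R libraries were below all control libraries. The mean was −3.34 ± 0.13 after OGD/R and −2.63 ± 0.16 in control (SD, n = 3 each), a difference of −0.71, or 0.613 times the control ratio (exact permutation test, two-sided, p = 0.1). That is the smallest p that 3 libraries against 3 allow. Since MMP9 fell and TIMP1 rose singly, the lower ratio follows from these changes and is not separate evidence.

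The log2 ratio of MMP14 to TIMP2 CPM was −0.20, −0.29 and −0.15 in OGD/R replicates 1, 2 and 3, against −0.08, 0.04 and 0.04 in control replicates 1, 2 and 3. The groups did not overlap here either. The difference between the means was −0.21, or 0.863 times the control ratio (exact permutation test, two-sided, p = 0.1, the smallest possible). With MMP14 at −0.22 and TIMP2 at −0.01, the lower ratio restates the MMP14 change and is not separate evidence. Transcript ratios say nothing about the amount or the activity of the proteins.

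**Figure D3:**
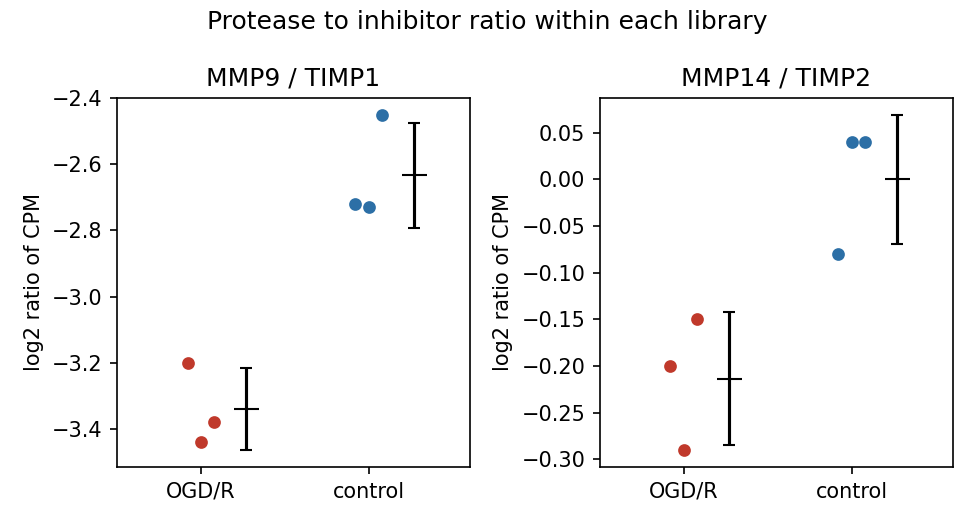
log2 ratio of MMP9 to TIMP1 (left) and of MMP14 to TIMP2 (right) CPM within each library, with 3 OGD/R libraries (red) and 3 control libraries (blue) and the mean ± SD beside them; the axes do not start at 0. Both ratios were lower in every OGD/R library than in every control library.

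Related genes were taken from 5 lists of 120 genes in all, of which 83 had a row. Of these 83, 4 rose and 24 fell, or 4.82% and 28.9%, against 10.2% and 9.48% of all genes. With the length and GC trend removed, 7 rose and 16 fell. Leaving out single libraries gave 2 to 6 that rose and 16 to 22 that fell, with 2 and 16 without OGD/R replicate 2 and also without control replicate 3. The median log2 fold change was −0.14 over the 83 genes, −0.001 over the 8 genes above and −0.005 over all genes (no test).

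In the list of other MMP genes and TIMP4, 10 of 21 had a row, 0 rose and 2 fell. That is 20% called in either direction, against 19.7% of all genes (no test). The median was −0.39, and MMP2, MMP3, MMP10, MMP19, MMP21 and MMP25 averaged under 1 CPM. TIMP4 had no row. MMP16, a further membrane-type protease, had 8.52, 9.14 and 8.20 CPM in the OGD/R libraries, against 12.1, 11.9 and 10.1 CPM in the control libraries, and fell by 0.40 on the log2 scale (−0.40 ± 0.12 SE, adjusted p = 0.0136). The groups did not overlap. The MMP16 call ended with the length and GC trend removed (−0.32), without OGD/R replicate 3 (−0.37), without control replicate 1 (−0.35) and without control replicate 2 (−0.36), with adjusted p of 0.0522 to 0.0738 there and of 0.00748 to 0.0738 over all alternatives. The other gene that fell, named because the count is small, was the stromelysin gene MMP3, at 0.583, 0.196 and 0.179 CPM after OGD/R and 0.857, 1.01 and 1.03 CPM in control. The MMP3 log2 fold change was −1.57 (adjusted p = 0.0139). The call ended without OGD/R replicate 2 (−1.33), OGD/R replicate 3 (−1.28) or control replicate 3 (−1.52). The MMP3 adjusted p ran from 0.00214 to 0.0866 over the 14 alternatives that gave a value. DESeq2 and the filter at 1 CPM gave none. MMP3 lay under 1 CPM on average, as did the gelatinase gene MMP2 (0.642 to 0.784 CPM after OGD/R and 0.685 to 1.40 CPM in control, adjusted p = 0.233), which MMP14 activates. At the same low level MMP19 went the other way, with 0.895 to 1.46 CPM after OGD/R and 0.547 to 0.796 CPM in control. Its groups did not overlap, but its log2 fold change of 0.82 did not pass (adjusted p = 0.144).

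The GPI-anchored MMP17 averaged 23.2 ± 0.82 CPM after OGD/R and 25.5 ± 2.15 CPM in control (SD, n = 3 each), with a log2 fold change of −0.14 (adjusted p = 0.285). MMP24, a membrane-type protease that shares 21.8% of its exon bases with opposite-strand genes, had a log2 fold change of −0.37 (adjusted p = 0.398). Leaving out single libraries moved MMP24 between −0.57 (without OGD/R replicate 2) and −0.15 (without OGD/R replicate 1) and MMP17 between −0.20 (without control replicate 1) and −0.09 (without control replicate 2), and neither passed. MMP11, known as stromelysin 3, had a value of 0.29 (adjusted p = 0.371), with control replicate 2 at 5.24 CPM and the other control libraries at 2.85 and 2.89 CPM. Without control replicate 2 the MMP11 value was 0.64 and passed (adjusted p = 0.0308, with adjusted p from 0.0308 to 0.752 over all alternatives).

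Of the other ADAM genes 9 of 18 had a row, 1 rose and 3 fell, and the median log2 fold change was −0.19. The shares were 11.1% higher and 33.3% lower, against 10.2% and 9.48% of all genes (no test). ADAM22, which lacks protease activity and acts as a receptor for LGI proteins, had 26.4, 26.4 and 25.0 CPM in the OGD/R libraries, against 33.2, 30.9 and 33.9 CPM in the control libraries (log2 fold change −0.33 ± 0.08 SE, adjusted p = 0.000816). ADAM8, an active protease best known from leukocytes, had 38.5, 31.9 and 35.3 CPM in the OGD/R libraries, against 41.0, 45.8 and 42.9 CPM in the control libraries (−0.30 ± 0.07 SE, adjusted p = 0.00168). Both fell without overlap of the groups.

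ADAM15, an integrin-binding ADAM, rose, with 169, 165 and 164 CPM in the OGD/R libraries, against 152, 153 and 147 CPM in the control libraries (0.14 ± 0.04 SE, adjusted p = 0.0169). The ADAM15 call ended with total-count scaling (0.11), without OGD/R replicate 1 (0.13), without OGD/R replicate 2 (0.14) and without control replicate 3 (0.12), with adjusted p of 0.0586 to 0.0912, while the value was 0.24 with the length and GC trend removed. Its adjusted p ran from 4.03e-07 to 0.0912 over all alternatives. ADAM19 fell by 0.29 on the log2 scale (adjusted p = 0.0414). That call ended in 8 of 16 alternatives, among them leaving out OGD/R replicate 1, 2 or 3 or control replicate 1 or 3, and the value was then −0.29 to −0.20 for the libraries left out and −0.18 with the length and GC trend removed (adjusted p 0.00936 to 0.292 over all alternatives). ADAM11 (−0.19), ADAM23 (−0.14) and ADAM32 (0.27) did not pass, with adjusted p of 0.279, 0.618 and 0.526. Leaving out single libraries moved ADAM11 between −0.29 (without control replicate 1) and −0.08 (without control replicate 2), ADAM23 between −0.22 (without control replicate 3) and −0.03 (without control replicate 1), and ADAM32 between 0.20 (without OGD/R replicate 3) and 0.31, and none of the 3 passed in any of these.

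The ADAMTS genes encode secreted proteases with thrombospondin repeats that cut proteoglycans and other matrix proteins. Of 23, 13 had a row, 0 rose and 4 fell, and the median log2 fold change was −0.31. The share that fell was 30.8%, against 9.48% of all genes, and 10.2% of all genes rose (no test). ADAMTS15 averaged 13.9 ± 0.97 CPM after OGD/R and 17.5 ± 1.41 CPM in control (SD, n = 3 each), with a log2 fold change of −0.34. ADAMTSL4, which has no protease domain and shares 14.4% of its exon bases with opposite-strand genes, was at −0.36, ADAMTS10 at −0.30 and ADAMTS9 at −0.32 on the same scale, and the adjusted p of the 4 genes was 0.0120 to 0.0330. With the length and GC trend removed, none of these 4 passed (−0.24, −0.28, −0.20 and −0.22 in the same order, adjusted p 0.0760 to 0.169). Each of the 4 calls also ended without OGD/R replicate 2 and without control replicate 3. ADAMTSL4 and ADAMTS10 lost theirs without OGD/R replicate 3, ADAMTS15 without control replicate 2, and ADAMTS9 without OGD/R replicate 1 or control replicate 1, with values of −0.34 to −0.23 in these. The adjusted p of the 4 genes was 0.00576 to 0.169 over all alternatives.

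**Figure D4:**
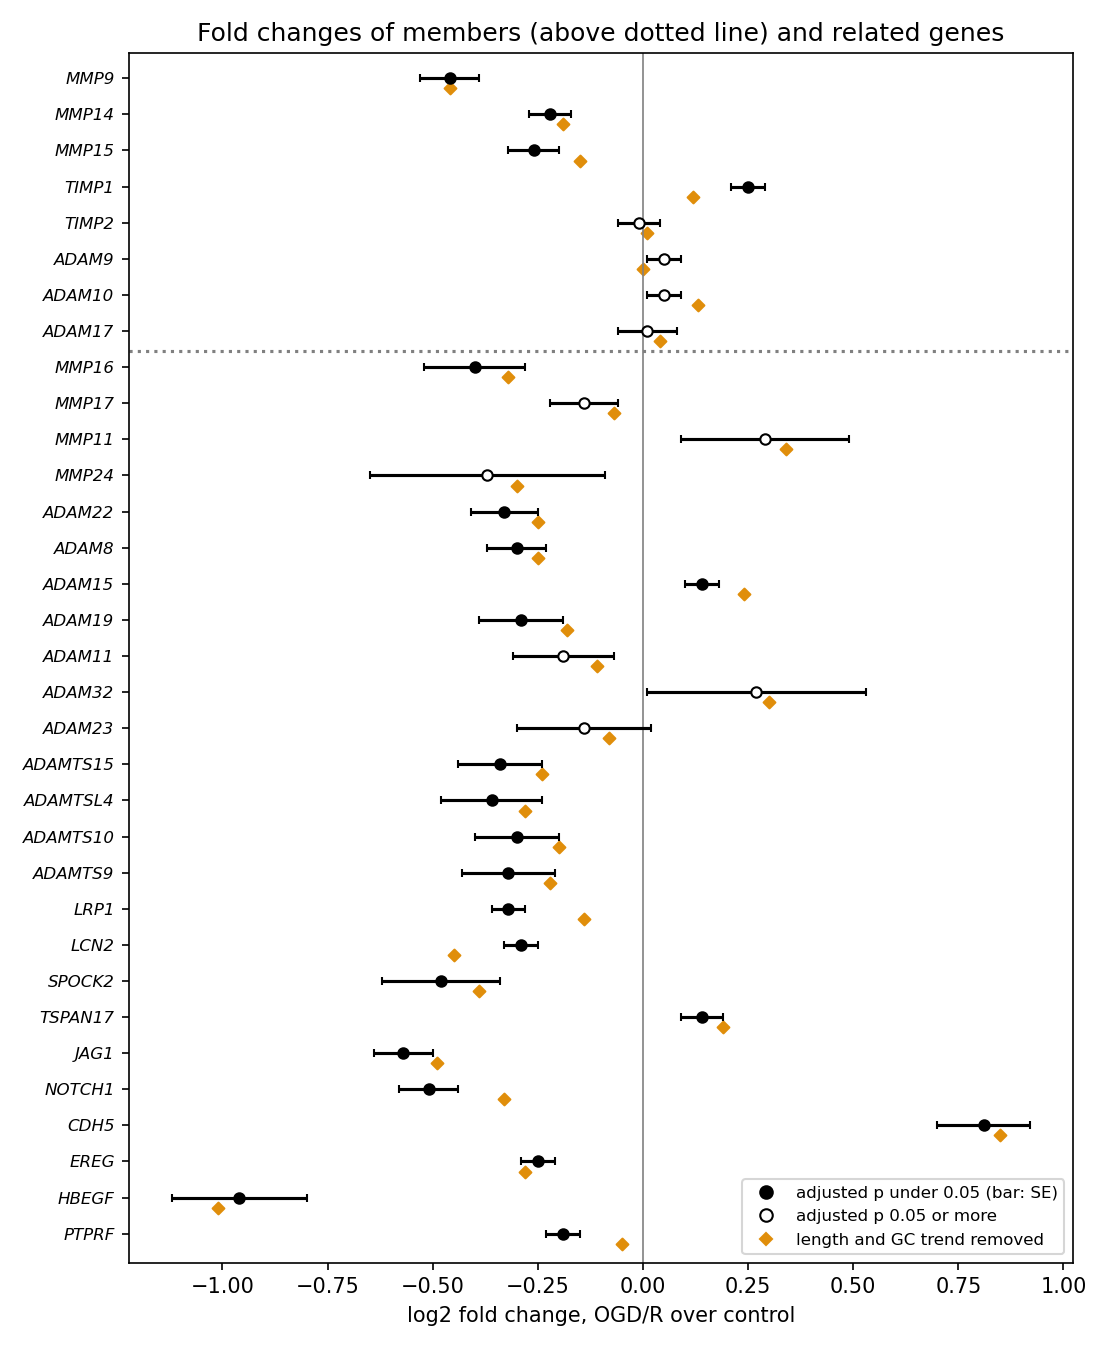
log2 fold change of OGD/R over control for the 8 measured genes (above the dotted line) and for related genes (below it); circles with SE bars are the values reported, filled where the adjusted p was under 0.05, and orange diamonds are the values with the length and GC trend removed. MMP9 was at −0.46 on both scales, and TIMP1 moved to 0.12 from its reported 0.25.

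Among 25 genes that activate, bind or clear these proteases, 21 had a row, 1 rose and 4 fell, and the median log2 fold change was −0.04. That is 23.8% called in either direction, near the 19.7% of all genes (no test). LRP1, the endocytic receptor that removes MMP9 and TIMP1 complexes from the cell surface, had 190.4, 189 and 194 CPM in the OGD/R libraries, against 241, 224 and 251 CPM in the control libraries (−0.32 ± 0.04 SE, adjusted p = 1.3e-07), and was at −0.14 with the length and GC trend removed. LCN2, a lipocalin that forms a complex with MMP9 and protects it from breakdown, had 212, 197 and 207 CPM in the OGD/R libraries, against 241, 268 and 245 CPM in the control libraries (−0.29 ± 0.04 SE, adjusted p = 9.36e-07), and was at −0.45 with that trend removed. Both fell without overlap of the groups.

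SPOCK2, a testican proteoglycan, fell by 0.48 on the log2 scale (adjusted p = 0.0130), and the call ended without OGD/R replicate 3 (−0.37, adjusted p = 0.109) and without control replicate 2 (−0.33, adjusted p = 0.162), within 0.00482 to 0.162 over all alternatives. TSPAN17, a tetraspanin partner of ADAM10, was the gene that rose (0.14, adjusted p = 0.0306). That call ended with total-count scaling (0.11) and without OGD/R replicate 2 (0.13) or 3 (0.12) or control replicate 1 (0.11) or 3 (0.13), with adjusted p of 0.105 to 0.122 there and of 9.14e-05 to 0.122 over all alternatives. FURIN, the convertase that activates membrane-type MMPs and ADAMs, had a log2 fold change of −0.04 with a 95% interval of −0.13 to 0.05 (adjusted p = 0.573). RECK, a membrane-anchored MMP inhibitor, had a value of 0.08 (adjusted p = 0.585), and the iRhom genes RHBDF1 (0.10) and RHBDF2 (0.02), which carry ADAM17 to the cell surface, had adjusted p of 0.447 and 0.863. FURIN, RECK, RHBDF1 and RHBDF2 are added for their role and were chosen after their values were seen.

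Of 33 genes whose proteins are cut by these proteases, 30 had a row, 2 rose and 11 fell, or 6.67% and 36.7%, against 10.2% and 9.48% of all genes (no test), and the median log2 fold change was −0.13. The Notch ligand gene JAG1 had 32.6, 34.6 and 33.2 CPM in the OGD/R libraries, against 50.5, 50.5 and 48.4 CPM in the control libraries (−0.57 ± 0.07 SE). NOTCH1, whose receptor is cut by ADAM10, was at −0.51 ± 0.07 SE and at −0.33 with the length and GC trend removed. The adjusted p was 2.42e-09 for JAG1 and 5.18e-08 for NOTCH1. The growth factor genes HBEGF (−0.96 ± 0.16 SE, adjusted p = 9.47e-06) and EREG (−0.25 ± 0.04 SE, adjusted p = 8.75e-06), whose precursors ADAM17 releases, fell as well. TNF, AREG and TGFA, further ADAM17 substrates named here after their values were seen, were not called lower. Other genes of the list were, among them CX3CL1 (−0.57, adjusted p = 0.00107) and CD44 (−0.18, adjusted p = 0.000658). L1CAM (−0.15, adjusted p = 0.00729) and APP (−0.13, adjusted p = 0.0108) fell too. TNF, which encodes tumour necrosis factor, rose, with 59.3, 58.7 and 59.0 CPM in the OGD/R libraries, against 50.2, 54.1 and 47.1 CPM in the control libraries (0.23 ± 0.06 SE, adjusted p = 0.00507). The TNF call ended with the length and GC trend removed (0.14) and without control replicate 3 (0.18), with adjusted p from 0.000859 to 0.0675 over all alternatives. The growth factor genes AREG (−0.02, adjusted p = 0.930) and TGFA (−0.06, adjusted p = 0.818) did not pass.

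PTPRF, a receptor phosphatase, fell by 0.19 on the log2 scale (adjusted p = 0.000146), but was at −0.05 and no longer passed with the length and GC trend removed (adjusted p = 0.243, and 3.45e-08 to 0.243 over all alternatives). CDH5, which encodes VE-cadherin, a substrate of ADAM10, rose, with 18.2, 14.9 and 21.3 CPM in the OGD/R libraries, against 10.1, 9.47 and 11.4 CPM in the control libraries (0.81 ± 0.11 SE, adjusted p = 2.71e-07). CLDN5 had no row.

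Genes with the most similar pattern were found by the root mean square difference between the log2 CPM deviations over the 6 libraries, among 11183 genes averaging 5 CPM or more. Nearest to MMP9 were ADRA2C (0.0368), APBA2 (0.0490) and SEPTIN3 (0.0538), with log2 fold changes of −0.54, −0.40 and −0.39. ADRA2C and SEPTIN3 passed the test (adjusted p = 0.00344 and 0.00170), and APBA2 did not (adjusted p = 0.0905). Nearest to TIMP1 were ATP5F1B (0.00965), SQOR (0.0125) and RAB1B (0.0135), with log2 fold changes of 0.25, 0.24 and 0.25. Likeness over 6 libraries in 2 groups is mostly likeness of the group difference.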

How the data were processed

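Per the labels' protocols, total RNA went into NEBNext Ultra libraries. The authors deposited whole-number read counts per Ensembl gene. The submitters' processing notes name featureCounts, HISAT2, Trimmomatic, edgeR and SAMtools, without versions, and the build GRCm38, a mouse build, although the IDs are human, so the build behind the counts is uncertain. Strand setting and treatment of shared reads are not given in the sources used here, so reads of overlapping genes cannot be told apart. Each of the 17104 deposited genes reached 10 counts in 3 or more libraries. Symbols matched 17093 IDs.

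TMM scaling was followed by edgeR's robust, two-sided quasi-likelihood test on group alone (edgeR 4.0.16, R 4.3.3), over all genes. Calls needed a Benjamini-Hochberg adjusted p below 0.05. filterByExpr removed 0 genes. Standard errors come from the fold change and the F statistic. Pairs of libraries in a group differed by more than sampling noise (chi-square per degree of freedom 4.1 to 7.53, against 16.3 to 23.9 across groups), so all 6 were kept. Alternatives were DESeq2 1.42.0, limma-voom 3.58.1, scaling by total counts, RLE or upper quartile, no filter, genes reaching 1 CPM in 3 libraries, the replicate number as a block, leaving out each library, and removal of each library's smooth trend (mgcv 1.9.3) on length and GC content of the longest GENCODE 29 transcript, known for 96.6% of genes and fitted on 10839 protein-coding genes above a log2 CPM of 2. The fit was tested on simulated data. Named genes were the members, up to 6 called genes of each related list with at least 1 CPM, all other MMP and ADAM genes above that level, and the 3 nearest patterns of MMP9 and TIMP1. MMP2, MMP3 and the other MMP genes under 1 CPM were named outside this rule. So were TNF, AREG, TGFA, CX3CL1, CD44, L1CAM, APP, 4 regulators and the endothelial markers. MMP19, CX3CL1, CD44, L1CAM and APP were not followed singly through the alternatives. One gene that the rule names among the regulators is not reported here, though the list's counts include it. The members and lists were chosen with earlier results of these data known. Promoter sequences are from RefSeq, GRCh38.p14.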

Additional observations from a re-analysis of the deposited data

How the results depend on the processing

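MMP9, MMP14 and TIMP1 kept their direction and their call in all 16 alternatives, with log2 fold changes of −0.53 to −0.36, −0.25 to −0.19 and 0.12 to 0.29. With the length and GC trend removed, 2 of the 8 genes rose, without and with the replicate block, because ADAM10 joined TIMP1 (adjusted p 0.00367 and 0.00267), and MMP15 no longer passed (−0.15, adjusted p 0.0596 and 0.0550). Related genes numbered 2 higher and 26 lower with total-count scaling, 7 and 16 with the length and GC trend removed, 8 and 17 with that and the replicate block, and 2 to 6 higher and 16 to 22 lower without single libraries. All genes that fell numbered 1079 to 1527 without single libraries, with 1079 without control replicate 3. TIMP2 turned to 0.01 with the length and GC trend removed, also with the block, and ran from −0.03 to 0.02 without single libraries. ADAM17 turned to −0.02 with total-count scaling and ran from −0.04 to 0.07 without single libraries. FURIN turned to 0.03 with the length and GC trend removed, also with the block, and RHBDF2 to −0.01 with total-count scaling. Without single libraries RHBDF2 ran from −0.01 to 0.06, AREG from −0.05 to 0.03 and TGFA from −0.14 to 0.05. None of these 6 genes passed in any alternative. The MMP9 to TIMP1 difference was −0.78 to −0.58 and the MMP14 to TIMP2 difference −0.25 to −0.17 over all alternatives; 3 pairs allow no p below 0.25. Same-numbered libraries did not deviate together (correlations of −0.01, 0.09 and −0.02, and 2 of 6 libraries correlated best with their own number), so numbers were not taken as pairs. The replicate block called 1827 genes higher and 1702 lower, and the same number of the 8 genes in each direction. The no-filter alternative tested the same genes. The cause of these shifts was not tested, and 3 libraries a group limit what small changes can be seen.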
